A study of Homo sapiens with 4 samples.

Results

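Glycolysis and the response to low oxygen were followed through 35 named genes among the 60674 features of a pair of single-cell transcriptome libraries, one of human pluripotent stem cells (hPSC) and one of ectoderm cells derived from them. The genes were taken by name and not by a cut-off on measured values, though earlier results of these data were known. They comprise 4 transporters, 17 glycolytic enzymes, 3 regulators of flux and 11 genes known to be induced by hypoxia, and all 35 were found in both libraries.

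Both cultures carried a pooled lentiviral guide library and, from another lentivirus, Cas9 with mCherry. Cells of the hPSC line labelled H9 were infected, sorted on fluorescence and left to recover for 1 week, and the ectoderm culture was then induced to differentiate. The protocol text is shared by all samples, so the group of each library comes from its title. Each group is 1 library made with the 10x Genomics 3′ protocol. The guide pools also differ: of the 35 genes, 1 (PFKM) was among the 113 targets listed for hPSC and 0 were among the 80 listed for ectoderm. Differentiation, guide pool and culture therefore cannot be told apart in any comparison between the libraries, and no test between them is possible. In a check of expression against the line named in the labels, 2 of 2 libraries did not match it.

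The hPSC library held 15326 cells after filtering with 83246015 unique molecular identifiers (UMIs, one per captured RNA molecule), and the ectoderm library 16360 cells with 91249888 UMIs. The median cell had 4807.5 and 4499 UMIs, and 4.18% and 3.17% of them came from mitochondrially encoded genes. The libraries shared 78 cell barcodes, 0.509% and 0.477% of their cells. Markers of pluripotent cells summed to 3766 CPM (normalised counts, UMIs scaled to a common library total) in hPSC and 3212 CPM in ectoderm, with 7 of 10 lower (NANOG at 178 and 11.6 CPM) and SALL4, LIN28A and DNMT3B higher (SALL4 at 184 and 424 CPM). Markers of neural ectoderm summed to 520 and 2006 CPM, from SOX2 at 236 and 516 CPM to SOX1 at 0.637 and 43.7 CPM, and several of them passed a mean of 5 CPM through their ectoderm level alone. Surface ectoderm markers summed to 182 and 304 CPM, of which EPCAM made up 168 and 285 CPM, while TP63 and KRT5 were at 0 UMIs in both libraries. Neural crest markers summed to 30.3 and 11.9 CPM and endoderm markers to 1.69 and 1.44 CPM. Mesoderm and endothelium markers summed to 35.4 and 12.6 CPM, of which KDR made up 29.7 and 3.17 CPM. Of the others, TBXT (7 and 204 UMIs) and MESP1 (243 and 426 UMIs) were higher in ectoderm and MIXL1 (107 and 68 UMIs) lower.

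Glycolysis splits glucose into pyruvate in the cytosol, with a net yield of ATP and NADH, and lactate dehydrogenase then reduces pyruvate to lactate and restores NAD+. When oxygen is short, the hypoxia-inducible factors (HIFs) escape hydroxylation and degradation, bind short motifs in the DNA and switch on many glycolytic genes together with genes for blood supply, mitophagy, collagen and pH. Pluripotent stem cells are known for rapid glycolysis with lactate release even when oxygen is present.

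The HIF complex recognises the core motifs ACGTG and GCGTG. Both were searched, on both strands, in the RefSeq promoters of GRCh38.p14, which reach from 250 bases before a gene's start to 50 after it. The table held 30 of the 35 genes, and SLC2A3, SLC16A1, VEGFA, BNIP3L and NDRG1 were not in it. Either motif occurred in 48.4% of all 35116 promoters, ACGTG in 21.4% and GCGTG in 36.5%. Among the 56 listed promoters of the 30 genes, 66.1% held one, and 27 genes had at least 1 such promoter. The promoters printed here belong to 4 of the 6 genes that were at least 2-fold lower in ectoderm at a mean of at least 5 CPM, namely those that were in the table and held a motif, so that the letters can be read beside the differences described next. Each is given 5′ to 3′ on the strand of its gene, with capitals for ACGTG or GCGTG or their reverse complements CACGT and CACGC, and a match is a description of letters and not a binding site.

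ADM, chr11:10304823-10305122, plus strand: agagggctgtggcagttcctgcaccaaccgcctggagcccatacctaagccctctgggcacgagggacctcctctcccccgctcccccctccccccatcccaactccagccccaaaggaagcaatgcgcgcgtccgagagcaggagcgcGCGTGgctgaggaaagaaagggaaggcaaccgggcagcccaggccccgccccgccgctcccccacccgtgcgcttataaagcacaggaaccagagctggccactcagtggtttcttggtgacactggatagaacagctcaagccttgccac
LDHA, chr11:18394313-18394612, plus strand: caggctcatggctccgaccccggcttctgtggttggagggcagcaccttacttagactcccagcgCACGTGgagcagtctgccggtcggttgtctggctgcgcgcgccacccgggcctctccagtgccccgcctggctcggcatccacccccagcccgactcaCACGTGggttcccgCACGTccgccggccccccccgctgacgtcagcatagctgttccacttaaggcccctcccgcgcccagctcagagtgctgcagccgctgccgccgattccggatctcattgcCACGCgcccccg
PKM, chr15:72231141-72231440, minus strand: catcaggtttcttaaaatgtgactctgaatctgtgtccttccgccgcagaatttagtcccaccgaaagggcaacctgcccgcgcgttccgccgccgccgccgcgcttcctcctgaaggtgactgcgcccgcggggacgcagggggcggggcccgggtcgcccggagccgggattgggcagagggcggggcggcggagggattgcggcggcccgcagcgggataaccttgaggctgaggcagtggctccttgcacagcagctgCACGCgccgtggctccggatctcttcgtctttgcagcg
PGK1, chrX:78103998-78104297, plus strand: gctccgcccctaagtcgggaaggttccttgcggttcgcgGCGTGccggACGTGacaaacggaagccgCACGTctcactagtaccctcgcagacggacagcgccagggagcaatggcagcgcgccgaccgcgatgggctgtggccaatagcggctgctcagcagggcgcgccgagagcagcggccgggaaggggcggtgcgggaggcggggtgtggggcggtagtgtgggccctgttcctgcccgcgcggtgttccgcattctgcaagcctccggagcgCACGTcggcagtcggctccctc

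LDHA had the densest window of these 4. Its first listed promoter held ACGTG 5 times and GCGTG 1 time over both strands, and CACGTG, which reads the same on either strand, counts on each. PGK1 held ACGTG 3 times and GCGTG 1 time. ADM had a single GCGTG, 101 bases before the start, and PKM a single one 12 bases after it. The window of EGLN3, the remaining gene of this group in the table, held neither motif. Genes within 2-fold had dense windows too. A promoter of HK2 held ACGTG 4 times and GCGTG 2 times, and that of BNIP3 held them 2 and 4 times, while those of PGAM1 and P4HA2 held neither. A link between motifs and ratios was not tested.

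A gene counted as different where its mean over both libraries was at least 5 CPM and its ratio at least 2-fold. Intervals after a log2 ratio (ectoderm over hPSC throughout) are exact 95% intervals and cover counting error only. Of the 35 genes, 30 passed the mean of 5 CPM, 6 of them were at least 2-fold lower in ectoderm and 0 were at least 2-fold higher. Over all 10331 features that passed, 4.09% were lower and 3.51% were higher. The median log2 ratio of the 30 genes was -0.45, against -0.01 over all features, and 24 of the 30 lay below 0, against 51.4% of all features. Together the 35 genes took 10406 CPM in hPSC and 7711 CPM in ectoderm.

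**Figure D1:**
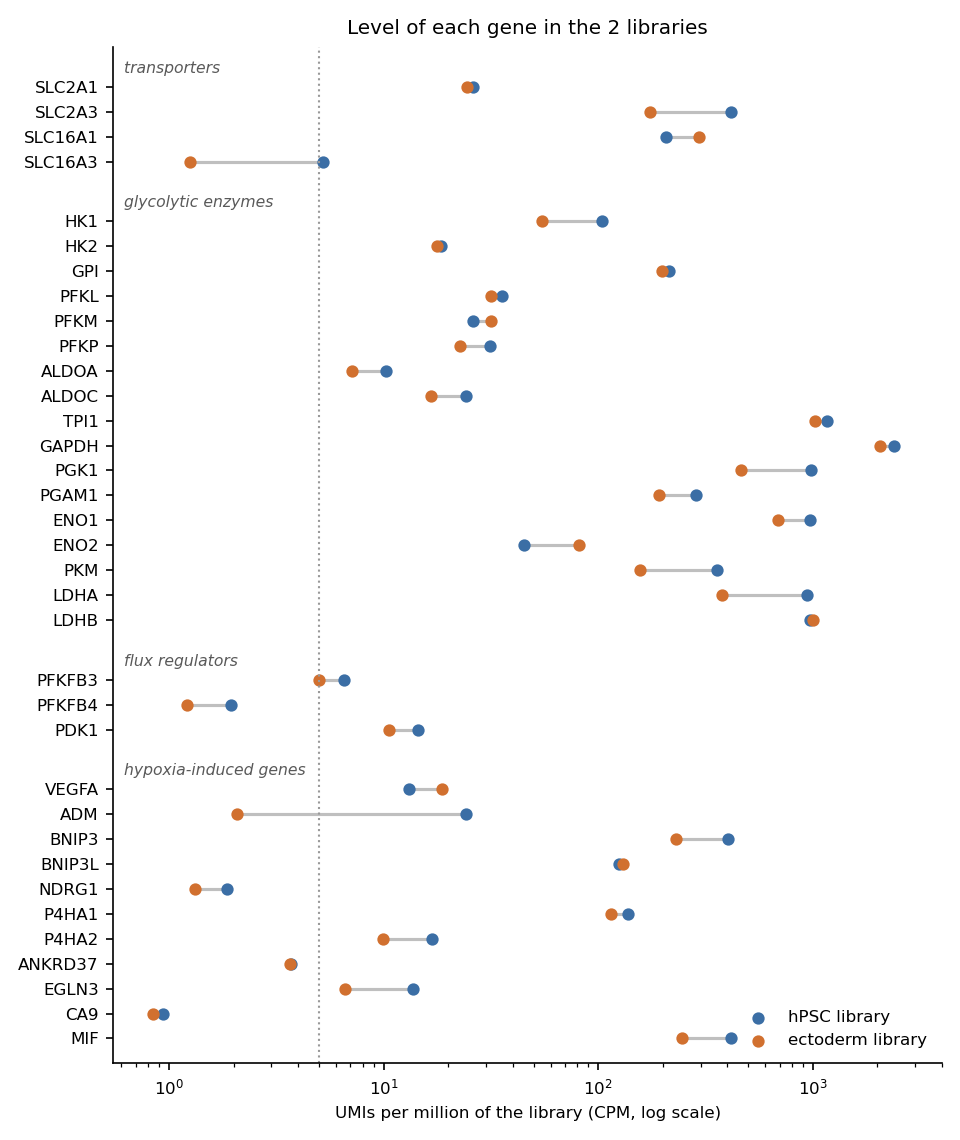
Level of each of the 35 genes in the hPSC library (blue) and the ectoderm library (orange), in CPM on a log axis, in pathway order; the dotted line marks 5 CPM and each point is 1 library. The enzyme levels reach from 7.15 CPM (ALDOA, ectoderm) to 2398 CPM (GAPDH, hPSC), and the longest connecting line belongs to ADM (24.2 to 2.07 CPM).

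In the plot of levels by library most genes keep their place from one library to the other, and ADM, SLC16A3, LDHA, SLC2A3, PKM and PGK1 show the widest gaps. UMIs from 3′ ends count molecules and are not scaled by gene length, but capture differs between 3′ ends, so levels of different genes are not ranked here. Only the ratio of the same gene between libraries, and the balance of paralogues between libraries, are compared.

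**Figure D2:**
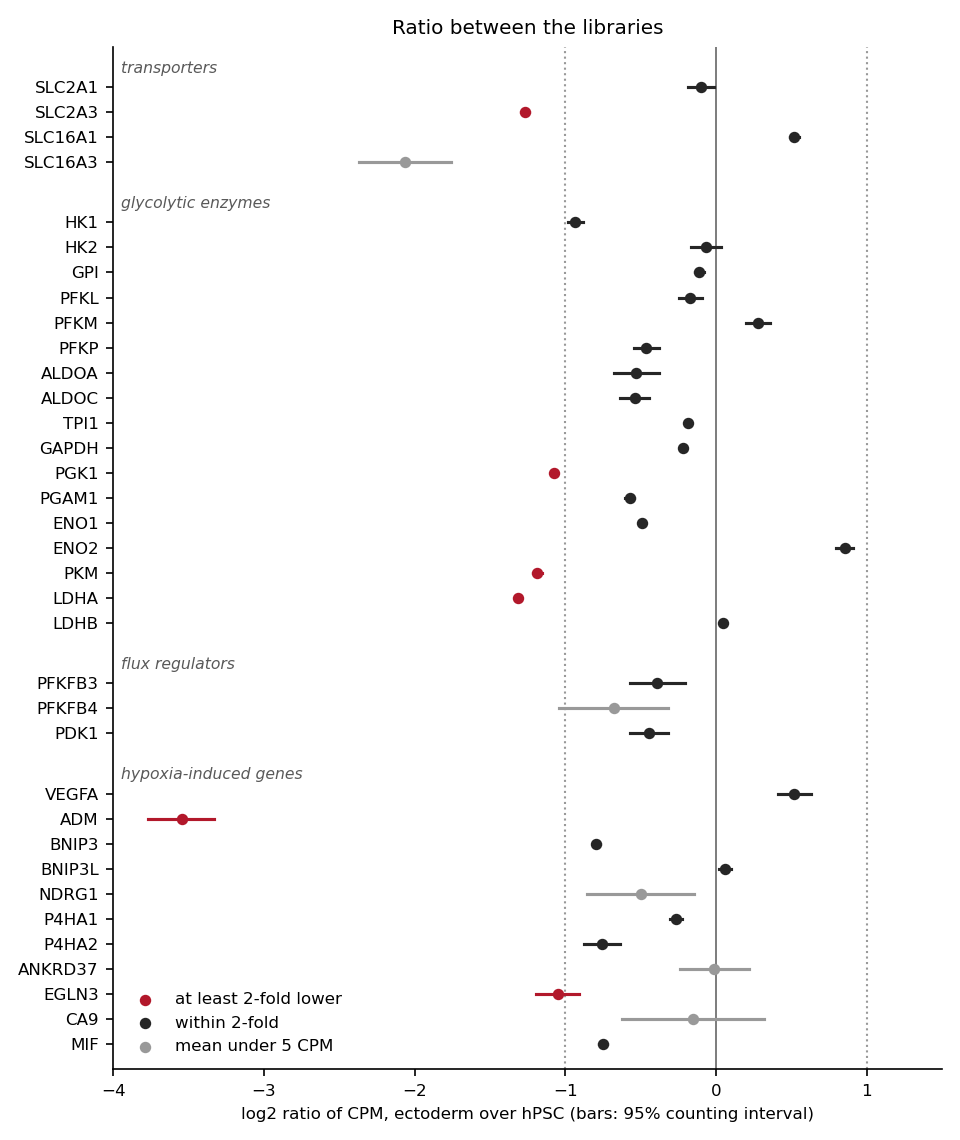
Log2 ratio of CPM, ectoderm over hPSC, for the same genes in the same order; bars are 95% counting intervals and dotted lines mark a 2-fold ratio. Red points are the 6 genes at least 2-fold lower in ectoderm, from EGLN3 (-1.05) to ADM (-3.55), black points lie within 2-fold and grey points had a mean under 5 CPM.

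Glucose enters cells through facilitative carriers. The carrier SLC2A3 (GLUT3, chr12:7919230-7936275, minus strand) stood at 418 CPM in hPSC against 174 CPM in ectoderm, a log2 ratio of -1.27 (-1.29 to -1.24). SLC2A1 (GLUT1), the widespread basal carrier, stood at 26.2 and 24.5 CPM, a log2 ratio of -0.10 (-0.19 to -0.01). So the glucose carriers did not move together: one was more than 2-fold lower and the other nearly level. Of the monocarboxylate carriers, which move lactate across the membrane, SLC16A1 (MCT1) stood at 206 and 296 CPM, a log2 ratio of 0.52 (0.49 to 0.55). SLC16A3 (MCT4), the carrier linked to lactate export in glycolytic cells, had 434 UMIs in the stem cells and 114 after induction, or 5.21 and 1.25 CPM, and its mean fell short of 5 CPM.

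Summed over the chain, the enzymes stood lower in ectoderm. Of the 17 enzymes all passed the mean of 5 CPM. Of these, 3 were at least 2-fold lower in ectoderm (against 4.09% of all features) and 14 had a ratio below 0. Their median log2 ratio was -0.46, and their summed level was 8574 CPM in hPSC and 6433 CPM in ectoderm. GAPDH alone did not carry this, since without it the sum was 6177 and 4370 CPM. From hexokinase to triosephosphate isomerase, the stage that spends ATP, 9 enzymes had a median log2 ratio of -0.19 and 0 were 2-fold lower. From GAPDH to lactate dehydrogenase, the stage that yields ATP and sets the fate of pyruvate, 8 enzymes had a median of -0.53 and 3 were 2-fold lower. The stages were not tested against each other, and in the cells with a non-targeting guide (212 and 159) their medians were in the other order, -0.64 and -0.50.

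Hexokinase traps glucose by phosphorylating it. HK1, the constitutive form, stood at 104 CPM in hPSC against 54.5 CPM in ectoderm, a log2 ratio of -0.93 (-0.98 to -0.88), just short of 2-fold. HK2, the form induced by insulin and by HIF in many tissues, stood at 18.5 and 17.7 CPM, a log2 ratio of -0.07 (-0.17 to 0.04). GPI, which converts glucose 6-phosphate to fructose 6-phosphate, was nearly level at 214 and 198 CPM (log2 ratio -0.11).

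Phosphofructokinase, the committed step, is built from subunits of 3 genes, and they went different ways. PFKP, the platelet type, stood at 31.3 and 22.7 CPM (log2 ratio -0.46) and PFKL, the liver type, at 35.6 and 31.6 CPM (log2 ratio -0.17). PFKM, the muscle type, stood at 26.0 and 31.5 CPM (log2 ratio 0.28). The share of PFKM in the UMIs of the 3 genes was 28.0% in hPSC and 36.7% (35.6 to 37.8, exact Clopper-Pearson 95% interval, as for all shares here) in ectoderm, while that of PFKP was 33.7% and 26.5%.

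Aldolase cleaves the hexose and triosephosphate isomerase interconverts the products. ALDOC stood at 24.2 and 16.6 CPM (log2 ratio -0.54) and ALDOA at 10.3 and 7.15 CPM (log2 ratio -0.53). The level of ALDOA is uncertain, since AC093512.2 on the same strand covers 42.3% of its exon bases and the last 300 bases of 14 of its 15 coding transcripts in GENCODE 29, and reads that fit both genes can go uncounted. TPI1 was close between the libraries, at 1164 and 1022 CPM, a log2 ratio of -0.19 (-0.20 to -0.17).

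In the second stage GAPDH, which makes NADH and is often used as a reference gene, stood at 2398 and 2063 CPM, a log2 ratio of -0.22 (-0.23 to -0.21). PGK1 (chrX:77910739-78129296, plus strand), the first ATP-making enzyme, stood at 978 CPM in hPSC against 465 CPM in ectoderm, a log2 ratio of -1.07 (-1.09 to -1.06). The neighbouring steps GAPDH and PGK1 thus differed from each other in their ratios by much more than counting error. PGAM1, phosphoglycerate mutase, stood at 285 and 192 CPM, a log2 ratio of -0.57 (-0.60 to -0.54).

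Enolase makes phosphoenolpyruvate. ENO1, the ubiquitous form, stood at 970 and 689 CPM, a log2 ratio of -0.49 (-0.51 to -0.48). ENO2, the form known from neurons, stood at 44.9 and 81.2 CPM, a log2 ratio of 0.86 (0.80 to 0.91), the highest among the 30 genes. PKM (chr15:72199029-72231822, minus strand), pyruvate kinase, stood at 357 CPM in hPSC against 157 CPM in ectoderm, a log2 ratio of -1.18 (-1.21 to -1.16). Its spliced forms PKM1 and PKM2 are not separated by these counts.

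The paralogues of lactate dehydrogenase differed in their ratios. LDHA (chr11:18394388-18408425, plus strand), whose subunit favours the making of lactate, stood at 940 CPM in hPSC against 377 CPM in ectoderm, a log2 ratio of -1.32 (-1.34 to -1.30). LDHB, whose subunit favours the use of lactate, stood at 973 and 1006 CPM, a log2 ratio of 0.05 (0.03 to 0.06). LDHB was thus level while LDHA was 2.49-fold lower in ectoderm. In GENCODE 29 the same-strand AC010197.2 covers the last 300 bases of 3 of the 5 coding transcripts of LDHB, which could lower its count in both libraries.

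**Figure D3:**
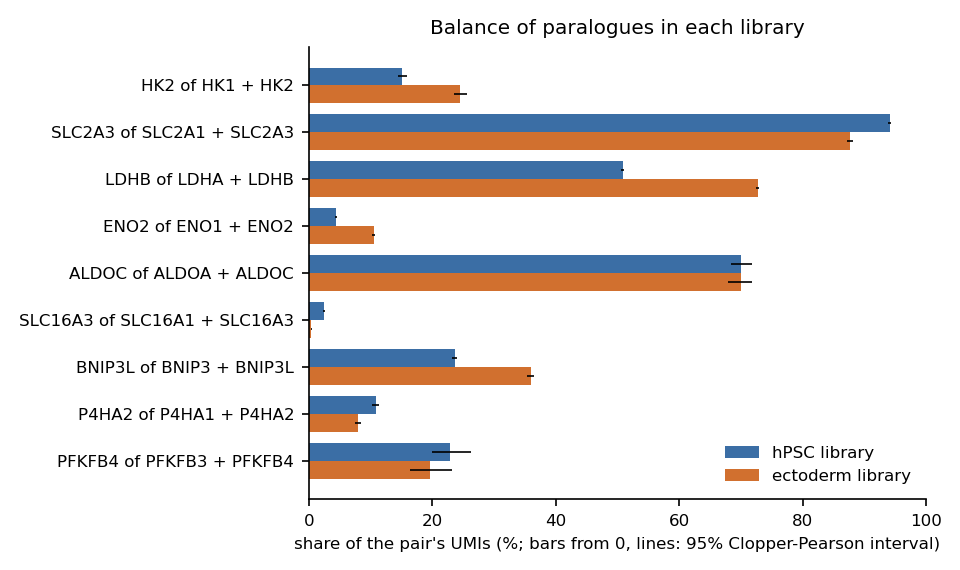
Share of the named paralogue in the UMIs of its pair, in percent, in the hPSC library (blue) and the ectoderm library (orange); bars start at 0 and lines are 95% Clopper-Pearson intervals. LDHB goes from 50.9% to 72.7%, HK2 from 15.1% to 24.5% and ENO2 from 4.42% to 10.5%, while ALDOC stays at 70.1% and 70.0%. The ALDOC share is uncertain, since the level of ALDOA is.

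Shares within a pair do not depend on how the libraries are scaled. The share of LDHB in the LDHA and LDHB UMIs was 50.9% (50.6 to 51.1) in hPSC and 72.7% (72.5 to 73.0) in ectoderm. The share of HK2 was 15.1% (14.4 to 15.8) and 24.5% (23.5 to 25.6), and this came with a lower HK1 and not with a higher HK2. ENO2 took 4.42% (4.29 to 4.56) and 10.5% (10.3 to 10.8) of the enolase UMIs, with ENO1 lower and ENO2 higher. SLC2A3 took 94.1% (93.9 to 94.3) and 87.6% (87.2 to 88.1) of the glucose carrier UMIs and remained the main source of UMIs in both libraries. Beyond these pairs, BNIP3L went from 23.7% to 35.9% of its pair with BNIP3, P4HA2 from 10.8% to 7.95% with P4HA1 and SLC16A3 from 2.47% to 0.421% with SLC16A1. The aldolase balance was the same within counting error, with ALDOC at 70.1% (68.4 to 71.8) and 70.0% (68.0 to 71.9). The same-strand overlap makes the level of ALDOA uncertain, and with it the size of this share, which the intervals do not cover. In the non-targeting cells LDHA had 48.4% (46.4 to 50.4) and 24.7% (22.4 to 27.1) of its pair and ENO2 5.75% and 11.8%, whereas HK2 had 16.4% (10.7 to 23.6) and 19.4% (10.4 to 31.4), intervals that overlap.

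Flux is tuned by enzymes outside the chain. PFKFB3, which makes the activator of phosphofructokinase, stood at 6.53 and 4.99 CPM (log2 ratio -0.39), and its relative PFKFB4 had 162 and 111 UMIs, a mean under 5 CPM. PDK1, the kinase that shuts off pyruvate dehydrogenase, stood at 14.4 and 10.6 CPM (log2 ratio -0.44). Of the 2 regulators that passed the mean of 5 CPM, 0 were 2-fold different in either direction, against 7.61% of all features.

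The genes induced by hypoxia outside the chain also stood lower in sum. Of 11, 8 passed the mean of 5 CPM and 2 were at least 2-fold lower in ectoderm (against 4.09% of all features). A ratio below 0 was seen for 6, and the median log2 ratio was -0.75. Their summed level was 1153 CPM in hPSC and 766 CPM in ectoderm. Without MIF, which codes for a cytokine and is expressed in most cells, the sum was 738 and 519 CPM.

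ADM (chr11:10304680-10307397, plus strand), which codes for the vasodilator peptide adrenomedullin, had the lowest ratio of all 35. It had 2015 UMIs in the stem cells and 189 after induction, 24.2 and 2.07 CPM, a log2 ratio of -3.55 (-3.77 to -3.33), and it passed the mean of 5 CPM through its hPSC level alone. EGLN3 (chr14:33924231-34462774, minus strand), the prolyl hydroxylase PHD3 that both marks and restrains HIF activity, stood at 13.7 and 6.60 CPM, a log2 ratio of -1.05 with an interval of -1.19 to -0.91 that spans the 2-fold line. PGK1 (-1.07) and EGLN3 (-1.05) lay just inside the 2-fold limit and HK1 (-0.93) just outside it.

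BNIP3 and BNIP3L are receptors that mark mitochondria for mitophagy. BNIP3 stood at 402 CPM in hPSC against 232 CPM in ectoderm, a log2 ratio of -0.79 (-0.82 to -0.77). BNIP3L stood at 125 and 130 CPM, a log2 ratio of 0.06 (0.02 to 0.10). Within this family too, one gene was lower and its relative level.

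P4HA1 and P4HA2 code for the catalytic subunits of collagen prolyl hydroxylase. P4HA1 stood at 138 and 115 CPM (log2 ratio -0.27) and P4HA2 at 16.7 and 9.92 CPM (log2 ratio -0.76). MIF stood at 415 and 247 CPM (log2 ratio -0.75). VEGFA, the angiogenic growth factor and a standard HIF target, went the other way, at 13.1 and 18.7 CPM, a log2 ratio of 0.52 (0.41 to 0.63). The remaining genes were near the limit of detection, with 156 and 121 UMIs for the stress gene NDRG1, 307 and 334 for ANKRD37 and 78 and 77 for CA9, the carbonic anhydrase often used as a hypoxia marker.

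Enzymes and hypoxia-induced genes therefore both lay below the median of all features, and neither group moved as a block. In each, the genes with a ratio under -1 stood beside others near or above 0, namely LDHB, PFKM and ENO2 among the enzymes and BNIP3L and VEGFA among the hypoxia-induced genes. The 2 medians, -0.46 over 17 genes and -0.75 over 8, were not tested against each other.

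The genes of the HIF machinery that passed the mean of 5 CPM were not lower. Of 12 genes for HIF subunits, their hydroxylases and cofactors, 8 passed the mean of 5 CPM, 0 of these had a ratio below 0 and the median log2 ratio was 0.35. HIF1A, the oxygen-regulated subunit, stood at 106 and 125 CPM (log2 ratio 0.23), a level of RNA that does not show the protein level, which oxygen sets. Of these 8, CITED2 was at least 2-fold different, against 7.61% of all features. It competes with HIF1A for the coactivators CBP and p300 and stood at 21.0 CPM in hPSC against 226 CPM in ectoderm, a log2 ratio of 3.43 (3.36 to 3.50). The lowest ratio of the 8 was that of HIF1AN, the asparaginyl hydroxylase of HIF, at 0.18. The other 4 genes had a mean under 5 CPM and went both ways. EPAS1, the HIF-2 alpha subunit, had 153 and 21 UMIs (log2 ratio -3.00, -3.73 to -2.33) and EGLN2, a prolyl hydroxylase, a log2 ratio of -0.80, while EGLN1, the main prolyl hydroxylase, had 50 and 148 UMIs (log2 ratio 1.43) and ARNT2, a partner subunit, a log2 ratio of 1.02.

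Another 28 genes known to be induced by hypoxia gave a mixed picture, and 20 of them passed the mean of 5 CPM. Of these, 3 were at least 2-fold lower (against 4.09% of all features) and 2 at least 2-fold higher (against 3.51%). The median log2 ratio of the list was 0.10. The lower ones were AK4, a mitochondrial adenylate kinase (191 and 68.8 CPM, log2 ratio -1.48), PLOD2, a lysyl hydroxylase of collagen (log2 ratio -1.17), and HMOX1. HMOX1, heme oxygenase, stood at 9.99 and 3.46 CPM (log2 ratio -1.53) and was past the filter through hPSC alone. The higher ones were IGFBP3, which binds insulin-like growth factors (1.42 and 10.6 CPM, log2 ratio 2.91, past the filter through ectoderm alone), and DDIT4, an inhibitor of mTORC1 (log2 ratio 1.48). The median of this longer list stands beside the -0.75 of the 8 hypoxia-induced genes that passed the same filter, or -0.50 over all 11.

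Pathways that branch from glycolysis leaned slightly lower. Of 18 other glycolysis genes 10 passed the mean of 5 CPM and 2 were at least 2-fold lower (against 4.09% of all features). The median log2 ratio was -0.32. PGM1, which links glucose 1-phosphate from glycogen to glycolysis, stood at 139 and 31.0 CPM (log2 ratio -2.17). TIGAR, a fructose bisphosphatase, had a log2 ratio of -1.43. PGAM5, which is on the list but codes for a mitochondrial protein phosphatase, was highest at 0.29. In the pentose phosphate pathway 9 of 9 passed, 1 was 2-fold lower (against 4.09% of all features) and the median was -0.18. The lower gene was TKT, transketolase, at 784 and 371 CPM (log2 ratio -1.08), and PGLS was highest at 0.46.

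For the entry of pyruvate into mitochondria 11 of 13 genes passed and 0 were 2-fold different (against 7.61% of all features). The median log2 ratio was -0.26, from MPC1, a subunit of the pyruvate carrier (-0.69), to DLD, a shared dehydrogenase subunit (0.15). In the tricarboxylic acid cycle 17 of 17 passed, 1 was 2-fold lower (against 4.09% of all features) and the median was -0.27. That gene was SUCLA2, a subunit of succinyl-CoA ligase, at 114 and 32.1 CPM (log2 ratio -1.83), with SDHC, a subunit of succinate dehydrogenase, highest at 0.28. These medians lie between that of the enzymes and that of all features.

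To compare cells of equal depth, each cell was thinned to 2000 UMIs, which left out 131 hPSC cells and 0 ectoderm cells. LDHA was then seen in 81.9% (81.3 to 82.5) of hPSC cells and 48.4% (47.6 to 49.1) of ectoderm cells, and in 96.4% and 73.3% without thinning. LDHB was seen in 84.8% and 86.1% of thinned cells. Cells with many LDHA UMIs were fewer in ectoderm, with 6.30% of thinned cells at 3 or more and 51.6% at 0, against 29.8% and 18.1% in hPSC. No cell type that lacks these genes was identified in either library, so the share that free RNA gives was not measured.

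**Figure D4:**
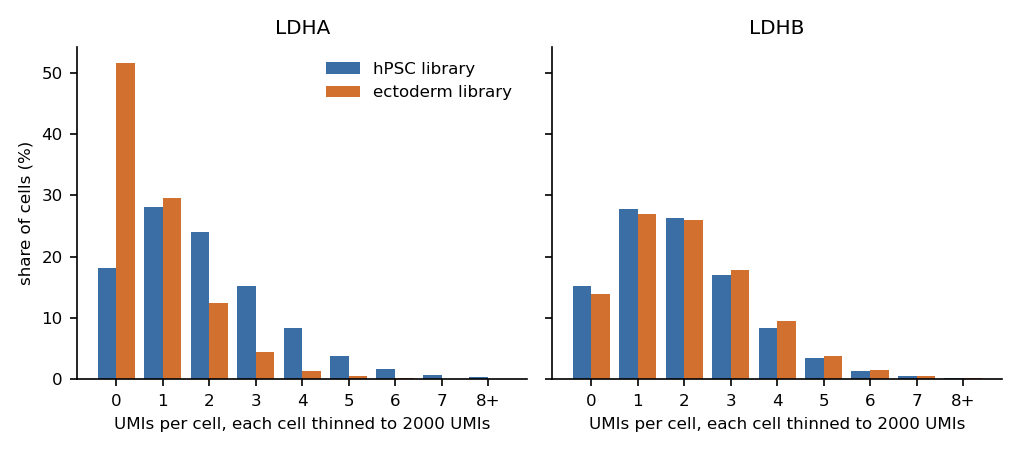
Share of cells in percent by the number of LDHA UMIs (left) and LDHB UMIs (right), each cell thinned to 2000 UMIs, in the hPSC library (blue) and the ectoderm library (orange). For LDHA 18.1% of hPSC cells and 51.6% of ectoderm cells are at 0, while the LDHB bars of the libraries nearly coincide.

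Other lower genes followed the same pattern in thinned cells. PGK1 was seen in 82.5% of hPSC and 58.3% of ectoderm cells, SLC2A3 in 54.0% and 28.6%, PKM in 49.9% and 26.2% and BNIP3 in 53.2% and 35.4%. ADM was seen in 4.59% and 0.342%, a level at which most cells of either library had none. The 17 enzymes summed to a median of 17 UMIs per 2000 in hPSC (10th to 90th percentile 11 to 24) and 13 in ectoderm (8 to 19), so the ranges overlap widely. Every hPSC cell had at least 1 enzyme UMI, and 0.00611% of ectoderm cells had none.

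LDHA and PGK1 also varied more between cells than most genes of enough UMIs. The Fano factor (variance over mean of thinned UMIs, 1 for pure counting) was 1.25 in hPSC and 1.31 in ectoderm for LDHA and 1.34 and 1.17 for PGK1. Over 2855 and 2848 features with a mean of at least 0.1 UMI the median was 1.02 in both, with an upper decile of 1.08 and 1.07. LDHB was less variable, at 1.08 and 1.06, and GAPDH stood at 1.26 and 1.18. Pearson's r over cells between PGK1 and LDHA was 0.16 (15195 hPSC cells) and 0.15 (16360 ectoderm cells), as a description of counts that share a library and a fixed depth.

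Since LDHA had the highest Fano factor of these genes in ectoderm, thinned cells with at least 3 LDHA UMIs were set beside cells with none, a choice made after that spread was seen. There were 4528 and 2746 such cells in hPSC and 1031 and 8446 in ectoderm. Over all features with at least 200 UMIs in the chosen cells the median log2 ratio, high over none, was -0.04 in hPSC (7013 features) and -0.03 in ectoderm (8039 features). PGK1 had 2301 against 1658 UMIs per 1000 cells in hPSC, a log2 ratio of 0.47 (0.42 to 0.52). In ectoderm it had 1349 against 815, a log2 ratio of 0.73 (0.64 to 0.81). That places PGK1 above 99.9% of features in both libraries.

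Some enzymes and some hypoxia-induced genes were higher in LDHA-rich cells, beside genes of other lists. Over all features the upper decile of this log2 ratio was 0.13 in hPSC and 0.21 in ectoderm. P4HA1 had log2 ratios of 0.39 (0.26 to 0.52) in hPSC and 0.58 (0.41 to 0.76) in ectoderm, and BNIP3 0.34 (0.27 to 0.42) and 0.58 (0.46 to 0.70). FAM162A, a mitochondrial protein gene of the longer hypoxia list, had 0.49 and 0.74. Among the enzymes GAPDH was at 0.22 and 0.28, ENO1 at 0.18 and 0.31, PKM at 0.15 and 0.36 and TPI1 at 0.15 and 0.30. HK2 had 0.17 (-0.22 to 0.56) and 0.60 (0.13 to 1.05), in ectoderm as high as P4HA1. Of the other lists, IGFBP3 had 0.90 (0.36 to 1.41) and PGM1 0.56 in ectoderm. IDH3G of the tricarboxylic acid cycle had 0.36 (0.06 to 0.66) in hPSC.

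Several genes were level or lower in the LDHA-rich cells. SLC2A3 had log2 ratios of -0.06 (-0.14 to 0.01) and 0.04 (-0.12 to 0.20) between the same cells, SLC16A1 0.00 and -0.07 and HK1 -0.01 and -0.33. LDHB was slightly higher, at 0.13 (0.08 to 0.18) and 0.09 (0.02 to 0.15). VEGFA in ectoderm had -0.63 (-1.27 to -0.05) on 26 against 330 UMIs, and ADM in hPSC had -0.03 (-0.36 to 0.30). SLC2A3 and ADM were at least 2-fold lower in ectoderm. Between LDHA-rich cells and cells with no LDHA UMI after thinning, SLC2A3 was level in both libraries. ADM was near 0 in hPSC with a wide interval, and had too few UMIs in ectoderm. Cells with none after thinning can still hold LDHA, which was seen in 96.4% and 73.3% of cells without thinning. The pluripotency markers ran from -0.30 (DNMT3B) to 0.01 (POU5F1) in hPSC and from -0.15 (L1TD1) to 0.25 (TDGF1) in ectoderm. The neural ectoderm markers in ectoderm ran from -1.40 (FABP7, 10 against 216 UMIs) to 0.03 (SIX3). The LDHA-rich cells had a lower mitochondrial share, 4.03% against 4.65% in hPSC and 2.96% against 3.51% in ectoderm, and its part in these ratios was not tested.

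The mitochondrial share was therefore followed on its own. Each library was divided at the quartiles of that share, whose median ran from 2.42% in the lowest group to 6.39% in the highest in hPSC and from 1.79% to 5.07% in ectoderm. Levels were scaled like CPM but to non-mitochondrial UMIs, so that the share itself does not dilute them. Summed enzymes went from 9656 to 8248 in hPSC and from 6988 to 6231 in ectoderm.

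**Figure D5:**
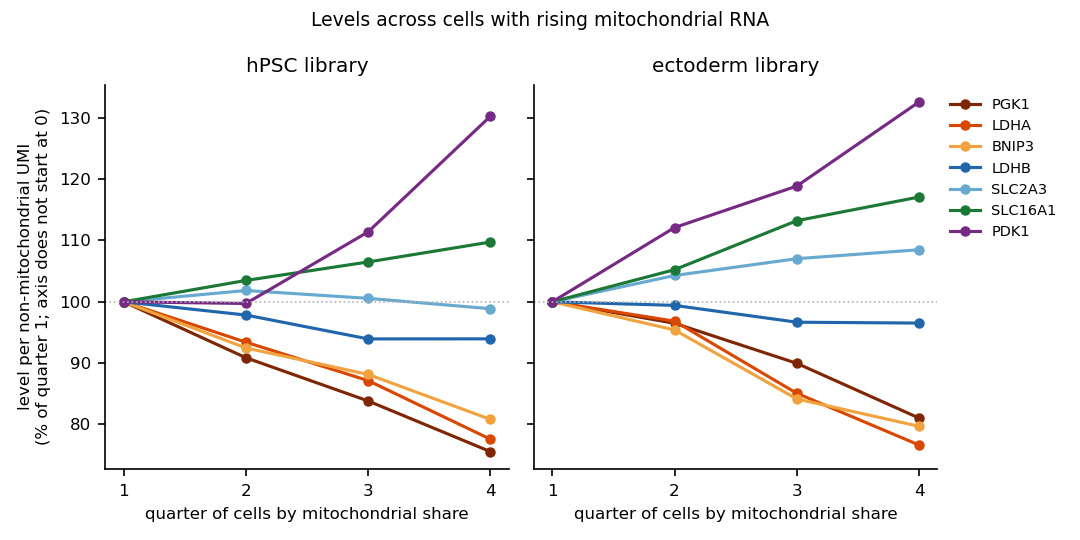
Level of 7 genes per non-mitochondrial UMI, as a percentage of the level in the cells of lowest mitochondrial share, across cells split at the quartiles of that share, in hPSC (left) and ectoderm (right); the axis does not start at 0 and each point pools the cells of 1 group. LDHA, PGK1 and BNIP3 descend in both panels (LDHA from 1094 to 848 and from 429 to 329), LDHB stays near its start and PDK1 ends higher.

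LDHA stood at 1094 in the lowest group and 848 in the highest in hPSC, a log2 ratio of -0.37 (-0.40 to -0.34), and at 429 and 329 in ectoderm, -0.38 (-0.43 to -0.34). PGK1 had -0.40 and -0.30 and BNIP3 -0.31 and -0.33. LDHA, PGK1 and BNIP3 were thus lower where the mitochondrial share was high, while the median over all features was 0.07 in both libraries. PDK1 went the other way, from 13.7 to 17.9 in hPSC, a log2 ratio of 0.38 (0.15 to 0.62), and from 9.56 to 12.7 in ectoderm, 0.41 (0.14 to 0.67). SLC16A1 had 0.13 and 0.23, GPI 0.15 and 0.19 and SLC2A3 -0.02 and 0.12. On this scale LDHA was lower in ectoderm cells of the lowest mitochondrial share (429) than in hPSC cells of the highest (848). The LDHA ratio of -1.32 over whole libraries is scaled to all UMIs and is not compared with these ratios. Whether the mitochondrial share has a part in it was not tested.

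The guide assignments touch these genes in a single place. In 39 hPSC cells whose only guide was against PFKM, PFKM had 7 UMIs (exact Poisson 95% interval 2.81 to 14.4), where the level in 2876 other singly assigned cells predicts 5.26. A lower PFKM level was not detectable at this depth. PFKL had 8 UMIs against 7.95 predicted and PFKP 5 against 7.03. Cas9 cuts DNA, and an edited gene can keep its RNA level.

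Summed levels were also taken by target, but most targets had fewer than 50 cells. The sums are given without intervals, and an effect of a target was not tested. Over the 8 hPSC targets with at least 50 cells the enzymes summed to between 8217 CPM (KRT86) and 9157 CPM (PGLS), beside 8507 CPM in non-targeting cells. Over the 28 ectoderm targets of that size they summed to between 6155 CPM (PCCA) and 6806 CPM (DNASE2), beside 6327 CPM. The hypoxia-induced genes summed to between 1068 and 1199 CPM in hPSC targets and between 623 and 833 CPM in ectoderm targets. The ranges of the libraries did not overlap for either sum. Each range is made of cells of its own library, so it carries the difference between the whole libraries. The targets are not replicates, and the ranges add no evidence on that difference. No target had that many cells in both libraries.

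In the non-targeting cells alone, 3 of the 6 genes kept at least a 2-fold lower level in ectoderm. LDHA had 1163 and 334 UMIs there (log2 ratio -1.51, -1.68 to -1.33), SLC2A3 494 and 143 (log2 ratio -1.49, -1.77 to -1.22) and ADM 24 and 1 (log2 ratio -4.29, -9.65 to -1.67). PGK1 came to 1154 and 471 UMIs, a log2 ratio of -0.998 (-1.16 to -0.84) just short of the limit, and PKM to 406 and 173, a log2 ratio of -0.94 (-1.20 to -0.68). EGLN3 rested on 15 and 9 UMIs, with a log2 ratio of -0.44 (-1.82 to 0.84).

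Counting could blur some of these genes. Pseudogenes took at most 1.20% of the UMIs of their parent gene (BNIP3 in ectoderm, 254 UMIs over 39 features), and those of GAPDH, 62 features, took 0.0887% and 0.111%. Antisense genes overlap SLC16A1 (2992 and 3362 UMIs), SLC2A1 (351 and 389 UMIs) and MIF (358 and 299 UMIs). Coding genes on the opposite strand overlap further members, some of them of few UMIs. ARHGEF39 (1869 and 2289 UMIs) covers 38.5% of the exon bases of CA9, UFSP2 (2408 and 2523) 35.2% of ANKRD37 and CSNK1D (4071 and 4646) 5.36% of SLC16A3. SENP1 (904 and 1366 UMIs) covers 8.58% of those of PFKM, which had 2162 and 2876 UMIs. Since the strand used in counting is not stated, a part of these reads could belong to either partner.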

How the data were processed

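The transcriptome files hold UMI counts per gene and cell barcode, deposited by the authors as raw counts. Per the submitters' processing notes, STARsolo and STAR were run against GRCh38. The tool versions, the annotation and the strand used in counting were, in the sources used here, not given. The amplicon tables list, per read, a cell barcode, a guide barcode and its guide, with the authors' counts of mismatched bases. Read 1 has the length of a later chemistry than the one the labels name, and the hPSC amplicon table may be cut short.

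Cells needed 1000 UMIs, 500 genes and no more than 20% mitochondrial UMIs, a filter that 15326 of 15333 hPSC and 16360 of 16360 ectoderm barcodes passed. Doublets were not called. UMIs were summed per library and scaled to CPM. With 1 library per group no test was run, and every interval is an exact counting interval (conditional binomial for ratios, Clopper-Pearson for shares, Poisson for counts). A guide was assigned where exactly 1 guide had at least 20 amplicon UMIs in a cell. Thinning used a fixed seed. Gene positions and overlaps come from GENCODE 29 (GRCh38) and promoters from RefSeq (GRCh38.p14). Python 3.11.15, numpy 2.4.6, scipy 1.17.1 and pandas 2.3.3 were used. Of the steps, only the ratio between libraries, its interval and the 2-fold rule were tested on simulated counts.

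The genes and lists were chosen with earlier results of these data known. Named outside the 35 genes were up to 2 genes from each end of each list with a mean of at least 5 CPM. HIF1A, EPAS1, EGLN1, EGLN2, ARNT2, FAM162A, HILPDA, INSIG2, IDH3G, the single markers and the guide targets at the ends of a range were added after their values were seen. Alternatives covered scaling, the filter on levels, cell filters, non-targeting cells, averaging over cells and the removal of the 5% of cells with most UMIs.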

Additional observations from a re-analysis of the deposited data

How the results depend on the processing

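Each of the 9 summary results was recomputed under up to 10 alternatives, which gave 70 values, of which 63 stayed within the spread allowed, 7 moved and 0 reversed. With at least 20 CPM required in at least 1 library, 1 hypoxia-induced gene was 2-fold lower in place of 2, since EGLN3 lay under that level. With no filter on level the median log2 ratio of the hypoxia-induced genes was -0.50 in place of -0.75, as 3 genes of few UMIs entered. In the 212 and 159 non-targeting cells, 1 hypoxia-induced gene was 2-fold lower and their median was -0.46. There the difference in share, ectoderm minus hPSC in percentage points, was 2.93 for HK2 (9.41 over all cells), -23.7 for LDHA (-21.9) and -5.85 for SLC2A3 (-6.45). The ratios of the 6 genes stayed at least 2-fold lower in the 9 other settings, and all 30 signs held there. Several of these settings could hardly change them. The filters on level leave each ratio as it is, and EGLN3 was not counted at 20 CPM. The cut-offs of 2000 UMIs and 10% mitochondrial UMIs and the removal of shared barcodes kept at least 15157 of 15326 hPSC cells. In ectoderm they kept at least 16282 of 16360 cells. Leaving out the barcodes that the libraries share was chosen after seeing the data. In non-targeting cells PGK1, PKM and EGLN3 fell short of 2-fold and BNIP3L changed sign (-0.31, interval -0.68 to 0.06). The 3 enzymes past 2-fold there were LDHA, ALDOA (17 and 5 UMIs) and ALDOC (23 and 8 UMIs), so the count of 3 covers other genes than over all cells. No paired analysis was possible because each group has 1 library, and for the same reason no library could be left out.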
